A study of Rattus norvegicus with 23 samples.

Results

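Voltage-gated sodium channels carry the fast inward sodium current of the action potential. The pore is formed by an alpha subunit, of which rats have a family of genes that differ in the tissue that uses them, and smaller beta subunits adjust its gating and placement. Scn10a, together with Scn9a and Scn11a, is best known from the sensory neurons that carry pain and irritant signals, including the vagal fibres that reach the airways, whose cell bodies lie outside the lung. Scn1a, Scn2a, Scn3a and Scn8a are mainly known from the brain and from myelinated nerves, Scn4a is the channel of skeletal muscle, and Scn7a codes for an atypical member linked to the sensing of sodium levels.

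The 9 alpha subunit genes Scn1a, Scn2a, Scn3a, Scn4a, Scn7a, Scn8a, Scn9a, Scn10a and Scn11a were followed through lung arrays of elderly rats by the gene names of the array design. They had 13 of the 45598 probes on the array, and 7 of the 9 genes were among the 23255 genes tested. The family was chosen by the processed signal of Scn10a, which was higher in exposed than in control rats on both days, so that difference is given as a description and not tested. All animals were male F344 rats that were 19 months old when inhalation began. The exposed rats breathed a TiO2 nano-aerosol through the nose only at 10 mg/m3, for 6 hours a day and 5 days a week over 4 weeks, and the control rats breathed filtered air. RNA of the accessory lobe was taken right after the exposure (D0) or 28 days later (D28), which gave 6 control and 5 exposed arrays on D0 and 6 control and 6 exposed arrays on D28. The lobe holds many cell types, so more cells of a type and more RNA per cell cannot be told apart. The arrays thus stand for a single strain, sex, age at the start of inhalation and lobe. Rats of D28 were also older when sampled than those of D0, so time after exposure and age cannot be told apart.

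A spot is called well above background where its signal clears the local background by the rule of the scanner software, which held for 69.5% to 77.9% of spots per array. Control D28 replicate 4 was read with a later software version and lay alone on its slide. Control D0 replicate 5 and exposed D28 replicate 1 held more RNA of skeletal muscle genes than the others, with a mean log2 signal over 10 markers of 9.001 and 9.081 against 4.91 to 6.79 on the other arrays. All 12 lung identity markers, among them those of alveolar, club, ciliated and endothelial cells, were well above background on all 23 arrays.

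The array read Scn10a with a single probe of 60 bases at chr8:124578227-124578286 on the minus strand (rn4, the build of the array files). Its second part is shown because it ends in a stretch rich in A and T with a variant of the polyadenylation signal, ATTAAA, here in capitals.
Scn10a, bases 31 to 60 of the probe: tgagtcggccATTAAAattaatatttttaa
The hexamer ATTAAA occurred in the printed orientation in 3.90% of all probes and its reverse complement TTTAAT in 2.26%. Among the 13 probes of the sodium channel genes 2 held ATTAAA, those of Scn10a and Scn1a. The longest exact stretch that the Scn10a probe shared with a probe of any other gene was 13 bases in the same orientation and 14 as the reverse complement.

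Scn8a was read by 2 probes that lie 107.715 kb apart on chromosome 7 and gave different pictures, so both are shown.
Scn8a, first probe, chr7:139686447-139686506, plus strand: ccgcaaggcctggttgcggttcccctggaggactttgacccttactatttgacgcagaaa
Scn8a, second probe, bases 1 to 30, chr7:139794162-139794191, plus strand: ctgcagccaaatggattttattttttcatt
Scn7a also had 2 probes, close together on the minus strand of chromosome 3, and they differed in the comparison of the control groups described further on.
Scn7a, first probe, bases 1 to 30, chr3:48633714-48633743: gtatttcttgcaacttgaagaaaatgaccc
Scn7a, second probe, bases 1 to 30, chr3:48634769-48634798: actctaaaggtgtccactctggtcaaatcg

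The Scn10a probe was well above background on 1 of 6 control arrays and 5 of 5 exposed arrays on D0, and on 1 of 6 control arrays and 6 of 6 exposed arrays on D28. On D0 its processed signal, the brightness after background correction on a linear scale, ran from 5.81 to 23.2 with a median of 9.76 in the control rats. In the 5 exposed rats it was 141, 168, 138, 36.6 and 52.7. The exposed rats of D0 thus fell into 3 bright and 2 dimmer arrays, and the dimmest of them was still brighter than the brightest control. On D28 the signal ran from 6.99 to 16.3 with a median of 10.7 in the control rats and from 67.5 to 114 with a median of 77.3 in the exposed rats. No control array reached any exposed array on either day.

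On the log2 scale after normalization between arrays, Scn10a was 3.35 ± 0.63 (SD, n = 6) in control rats and 6.38 ± 0.70 (SD, n = 5) in exposed rats on D0. The difference was 3.03 with a standard error of 0.34. On D28 it was 3.35 ± 0.67 (SD, n = 6) in control rats and 6.61 ± 0.31 (SD, n = 6) in exposed rats, a difference of 3.26 with a standard error of 0.33. The control values rest on signals close to background, so no fold change is given. These values chose the genes described here and are given without a test. Genes that were higher past both thresholds, an adjusted p below 0.05 and a fold change of at least 1.5, made up 1.08% of the genes tested on D0, 0.482% on D28 and 0.297% on both days, and genes whose exposed arrays all lay above all control arrays made up 1.92% on D0 and 0.671% on D28.

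**Figure D1:**
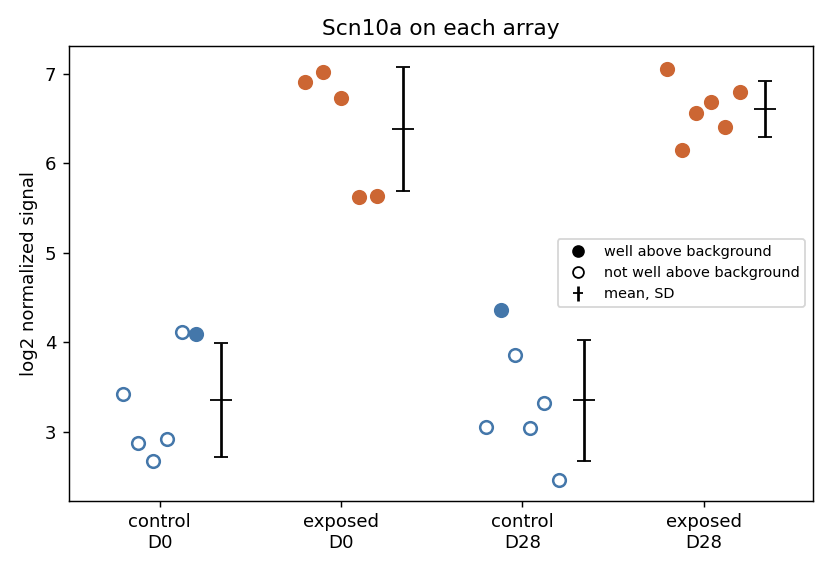
Scn10a log2 normalized signal (vertical axis, no unit) on each of the 23 arrays by group, with filled points for arrays on which the probe was well above background, open points for the others, and a dash with bars for the mean and SD of a group. All exposed arrays lie between 5.62 and 7.05, and all control arrays between 2.46 and 4.36.

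The size of this difference rested on the background correction. Before any correction the median pixel brightness of the Scn10a spot was 42 in the control and 164.5 in the exposed rats of D0 (group medians), and 44.25 and 116.5 on D28, while the local background around the spot had group medians between 31 and 36. The log2 difference was 1.404 on D0 and 1.54 on D28 with the median signal without background correction, and 1.398 and 1.54 with the table that the authors deposited. With normexp correction of the mean signal and an offset of 50, it was 0.92 on D0 and 1.08 on D28. With the processed signal and another scaling between arrays it stayed at 3.11 and 3.04 on D0 and at 3.19 and 3.20 on D28, for the 75th percentile and cyclic loess. The direction was the same in every one of these settings.

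**Figure D2:**
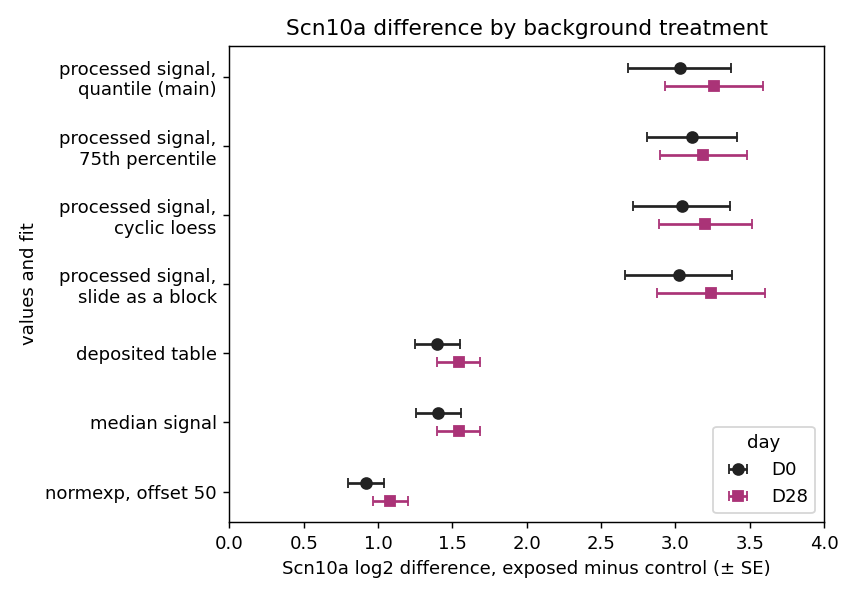
Log2 difference of Scn10a, exposed minus control (horizontal axis), for each day under 7 ways of treating the values (vertical axis), with bars for the standard error of the limma fit. The 4 settings that start from the processed signal lie near 3, and the 3 that start from uncorrected or normexp-corrected brightness lie between 0.92 and 1.54.

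The arrays were spread over 5 slides, and a slide with both groups of a day gives a difference of its own. On D0 the log2 difference of Scn10a was 4.02 on slide 1, 1.85 on slide 3, 3.52 on slide 4 and 2.64 on slide 5. On D28 it was 2.63 on slide 1, 3.29 on slide 3 and 3.69 on slide 5. As no control array reached any exposed array on either day, the same order within each slide had to follow and adds nothing. All of these values rest on 1 or 2 arrays a group.

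Comparisons of the 2 days were not the ground for the choice of the genes. The choice did use Scn10a in all 4 groups, as higher in exposed than in control rats on both days. Such a choice favours similar levels on the 2 days, so these Scn10a values are a description and not a test. Scn10a in control rats differed by -0.0028 between D28 and D0 (95% interval -0.69 to 0.68). In exposed rats it differed by 0.23 (95% interval -0.49 to 0.94). Both intervals hold for the processed signal, whose log2 scale rests on the background correction. The control values lie close to background, so the interval of the control rats cannot exclude a change in their RNA. The exposed-minus-control difference on D28 exceeded that on D0 by 0.23, with a 95% interval from -0.76 to 1.22. In these comparisons 0.602% of all genes were past both thresholds between the control groups and 0.348% between the exposed groups. For the difference between the days in the effect of exposure the share was 0.0301%.

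Of the other sensory neuron channels, Scn9a was well above background on none of the 23 arrays, with processed signals of 2.55 to 14.6. Its probe was above the negative control spots on 3 arrays, and the gene was not tested. Scn11a was well above background on 2 arrays, control D0 replicates 4 and 5, where the processed signal was 30.03 and 36.1. On the remaining arrays it lay at 11.4 or below. The log2 difference of Scn11a between exposed and control rats was -0.81 on D0 (SE 0.56, limma adjusted p = 0.703) and 0.32 on D28 (SE 0.53, limma adjusted p = 0.912), with overlapping groups on both days. Both channels thus lay near background on nearly all arrays, and the fitted values of Scn11a rest on such signals.

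Among the channels best known from the brain, Scn1a was well above background on 1 array, exposed D0 replicate 3, at a processed signal of 52.4, and on the others it lay between 2.66 and 12.1. It was not tested. Scn2a had 2 probes that were well above background on 10 and 2 arrays. Its log2 normalized signal ran from 2.21 to 4.39 with a median of 3.49 in the control rats of D0 and was 2.61 to 3.66 with a median of 2.96 in the 5 exposed rats. On D28 it ran from 2.98 to 5.01 (median 3.37) in the control and from 2.51 to 5.21 (median 3.85) in the exposed rats, so the groups overlapped throughout. The difference was -0.45 on D0 (SE 0.45, limma adjusted p = 0.873) and -0.0046 on D28 (SE 0.43, limma adjusted p = 0.998).

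Scn3a was measured more often, with probes well above background on 19 and 9 arrays. Its second probe was well above background on 3 of 6 arrays in the control D0, control D28 and exposed D28 groups and on 0 of 5 in the exposed D0 group. The log2 difference between exposed and control rats was -0.41 on D0 (SE 0.26, limma adjusted p = 0.652) and -0.08 on D28 (SE 0.25, limma adjusted p = 0.963). Control D28 replicate 4, the array that stood apart, had the brightest spots of both genes, at 87.0 for the second Scn2a probe and 94.4 for the first Scn3a probe. Exposed rats of D28 had 0.72 more Scn3a than those of D0 on the log2 scale at an unadjusted p of 0.012 in limma, which did not hold after adjustment over all genes (limma adjusted p = 0.434).

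The 2 probes of Scn8a, the channel of nodes of Ranvier and many central neurons, disagreed. The first was well above background on all 23 arrays, with processed signals of 26.4 to 82.1. The second was so on none, with 3.09 to 9.13. Averaged over both probes, the log2 difference between exposed and control rats was -0.03 on D0 (SE 0.13, limma adjusted p = 0.997) and 0.28 on D28 (SE 0.12, unadjusted p = 0.035, limma adjusted p = 0.393). On D28 the first probe gave 0.16 (SE 0.24) and the second 0.39 (SE 0.18), the latter with its brightest spot, 9.13, on exposed D28 replicate 6.

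**Figure D3:**
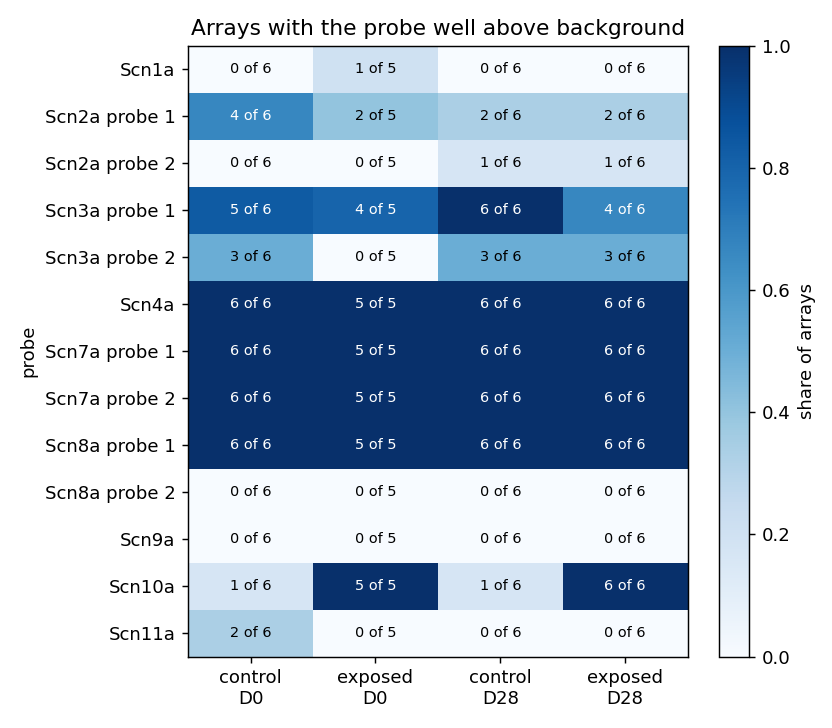
Number of arrays in each group (columns) on which each of the 13 probes (rows) was well above background, coloured by the share of arrays from 0 to 1. Scn10a is on all exposed and 1 of 6 control arrays a day, Scn4a, both Scn7a probes and the first Scn8a probe are on every array, and Scn9a and the second Scn8a probe are on none.

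Scn4a and Scn7a were measured on every array. Scn4a had processed signals of 25.8 to 64.5, and its log2 normalized signal was 5.27 ± 0.39 (SD, n = 6) in control and 5.47 ± 0.34 (SD, n = 5) in exposed rats of D0, and 5.05 ± 0.30 (SD, n = 6) and 5.36 ± 0.14 (SD, n = 6) on D28. The differences were 0.20 on D0 (SE 0.18, limma adjusted p = 0.841) and 0.31 on D28 (SE 0.17, limma adjusted p = 0.569). On the 2 arrays with the most skeletal muscle RNA, control D0 replicate 5 and exposed D28 replicate 1, Scn4a was at 5.66 and 5.24, within the range of the arrays of their groups (4.75 to 5.68 and 5.17 to 5.53).

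Scn7a gave the narrowest spread of the channels in the control rats. Its log2 normalized signal was 7.50 ± 0.13 (SD, n = 6) in control and 7.31 ± 0.27 (SD, n = 5) in exposed rats on D0, and 7.77 ± 0.11 (SD, n = 6) and 7.68 ± 0.26 (SD, n = 6) on D28. The exposed-minus-control difference was -0.19 on D0 (SE 0.13, limma adjusted p = 0.686) and -0.09 on D28 (SE 0.12, limma adjusted p = 0.877). Scn7a was higher on D28 than on D0 by 0.26 in the control rats (SE 0.12, unadjusted p = 0.040, limma adjusted p = 0.355) and by 0.36 in the exposed rats (SE 0.13, unadjusted p = 0.0095, limma adjusted p = 0.397), and neither difference passed the threshold. An unadjusted p below 0.05 was found for 13.2% of all genes between the control groups and for 7.67% between the exposed groups. Between the control groups its second probe differed by 0.51 (SE 0.14, limma adjusted p = 0.1004) and its first by 0.02 (SE 0.14).

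Of the 6 tested channel genes other than Scn10a, 0 were past both thresholds on D0, where 1.75% of all genes were, and 0 on D28, where 0.748% were. At an unadjusted p below 0.05 there were 0 of them on D0, and on D28 there was 1, Scn8a, beside 11.8% and 10.9% of all genes. Between the control groups, between the exposed groups and for the difference between the days, 0 of the 6 genes were past both thresholds. The median difference over all genes tested lay between -0.013 and -0.0012 in the 5 comparisons, as the normalization to a common distribution of signals sets it near 0. For a gene such as Scn11a, whose 95% interval on D0 ran from -1.98 to 0.35, these data leave room for differences of a size that would pass the fold limit.

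**Figure D4:**
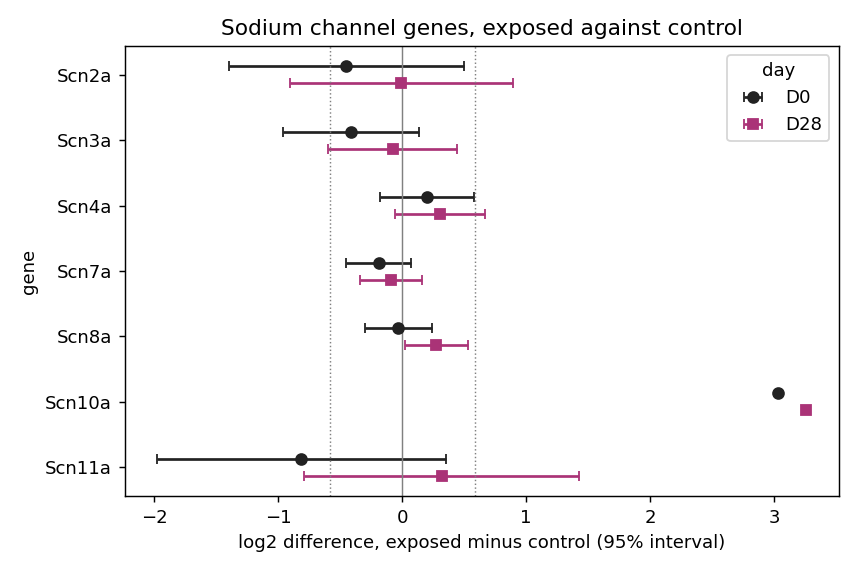
Log2 difference, exposed minus control (horizontal axis), of the 7 channel genes tested (vertical axis) on D0 and D28, with bars for the 95% interval of the genes other than Scn10a and dotted lines at a fold change of 1.5. Scn10a, shown as a description, lies at 3.03 and 3.26, and of the intervals of the other genes only that of Scn8a on D28 leaves out 0.

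The beta subunits did not pass the test on either day (0 of 4 genes), beside 1.75% of all genes on D0 and 0.748% on D28. For 4 genes a count of 0 is near those shares. Scn3b was well above background on all 23 arrays and differed by -0.21 on D0 (SE 0.11, limma adjusted p = 0.500) and by -0.22 on D28 (SE 0.11, limma adjusted p = 0.459). Scn2b, on 23 arrays, differed by 0.30 and -0.31, with limma adjusted p of 0.926 and 0.858. Scn4b, a subunit that shapes resurgent current, was well above background on 4 arrays and gave -0.45 on D0 and 1.04 on D28 (SE 0.37, unadjusted p = 0.0098, limma adjusted p = 0.219).

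Of the 9 other sodium channel genes, 1 passed the test. Asic4, a member of the acid-sensing ion channel family, fell on both days. Its log2 normalized signal ran from 7.84 to 8.12 with a median of 8.01 in the control rats of D0 and was 7.26, 7.25, 7.31, 6.91 and 7.12 in the exposed rats. On D28 it ran from 7.70 to 8.29 (median 7.91) in the control and from 6.71 to 7.57 (median 7.19) in the exposed rats. The exposed rats were below the control rats on both days without overlap, as 2.34% of all genes were on D0 and 0.542% on D28. The difference was -0.83 on D0 (SE 0.13, limma adjusted p = 0.000662) and -0.80 on D28 (SE 0.12, limma adjusted p = 0.0014), where 0.679% and 0.267% of all genes fell past both thresholds. In a fit of the D28 arrays alone the adjusted p was 0.0571 for the same difference. With normexp correction the differences were -0.58 and -0.56, just under the fold limit, at limma adjusted p of 0.000267 and 0.000659.

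Nalcn, the sodium leak channel, was well above background on 5 arrays, with -0.74 on D0 (SE 0.27, limma adjusted p = 0.207) and -0.03 on D28 (limma adjusted p = 0.985). The epithelial sodium channel, through which alveolar and airway cells take up sodium and clear fluid, is built from the products of Scnn1a, Scnn1b and Scnn1g. All 3 were well above background on every array. Scnn1a differed by -0.39 on D0 and -0.29 on D28 (limma adjusted p = 0.513 and 0.674). Scnn1b differed by -0.03 and 0.23 (limma adjusted p = 0.997 and 0.741). Scnn1g differed by -0.34 on D0 (SE 0.10, limma adjusted p = 0.0849) and by -0.13 on D28 (limma adjusted p = 0.701).

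Of 13 tested partners of sodium channels, which hold, clear or modulate the channel, 0 passed on D0, beside 1.75% of all genes, and 1 rose on D28, beside 0.482%. That gene was Ank3, whose product anchors sodium channels at the axon initial segment and also occurs in epithelia. Its log2 normalized signal ran from 9.11 to 9.61 in the control rats of D28 and from 9.72 to 10.3 in the exposed rats, without overlap, and differed by 0.60 (SE 0.12, limma adjusted p = 0.0141). It fell below the fold limit without control D28 replicate 1 (0.57) or 4 (0.54) or exposed D28 replicate 2 (0.58) or 6 (0.54) with the deposited table (0.56), the median signal (0.56), normexp (0.54) and slide as a block (0.56), and its adjusted p was 0.073 in a fit of the D28 arrays alone. One of its probes on its own gave 0.49 (limma adjusted p = 0.297). On D0 the difference of Ank3 was 0.30 (SE 0.13, limma adjusted p = 0.298), and the test of the difference between the days gave a limma adjusted p of 0.9998. Of the sodium pump and exchanger genes 0 of 14 passed both thresholds on either day, and of the voltage-gated calcium channel alpha subunits 0 of 9, beside 1.75% of all genes on D0 and 0.748% on D28.

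**Figure D5:**
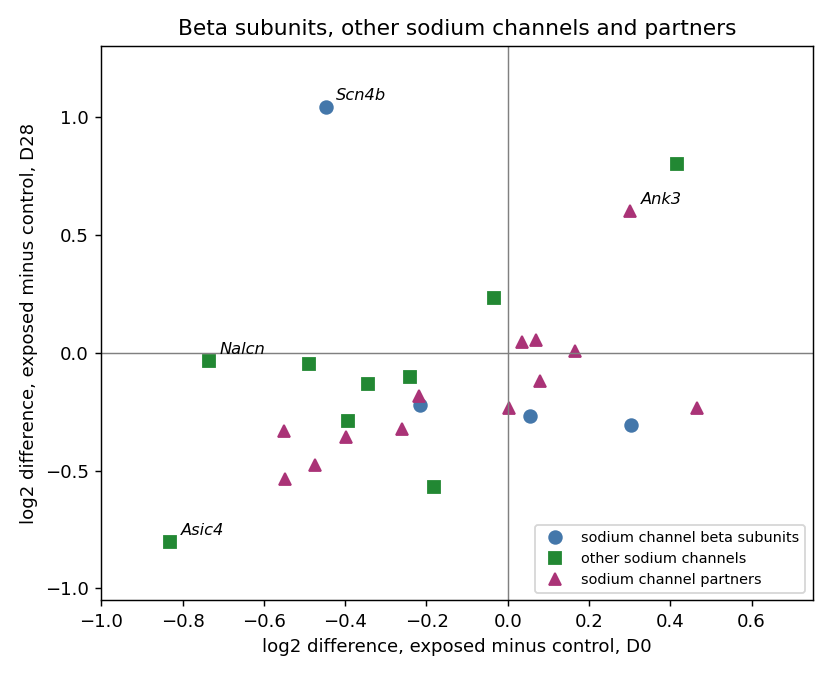
Log2 difference, exposed minus control, on D0 (horizontal axis) and on D28 (vertical axis) for the tested beta subunits, other sodium channels and partners, 1 point a gene. Asic4 lies at -0.83 and -0.80, Ank3 at 0.30 and 0.60, and Scn4b, which did not pass the test, at -0.45 and 1.04.

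Markers of the cells in which Scn10a is best known gave the following values. Of 23 sensory neuron markers, 11 were well above background on every array and 4 on none, namely Trpa1, P2rx2, Mrgprd and Snap25. Over the 22 tested markers the median difference was -0.05 on D0 and 0.04 on D28, beside -0.0012 and -0.0052 over all genes. On D0 1 marker fell, Stmn2, a regulator of microtubules in growing axons, by 1.04 on the log2 scale (SE 0.17, limma adjusted p = 0.00136), beside 0.679% of all genes. On that day 0 rose, beside 1.08% of all genes, and on D28 0 passed in either direction, beside 0.748%. Stmn2 ran from 6.89 to 7.12 in the control and from 5.47 to 6.45 in the exposed rats of D0. The mean log2 signal over the list was 4.79 to 5.15 and 4.73 to 5.01 in control and exposed rats of D0, and 4.71 to 5.07 and 4.66 to 5.02 on D28, so the groups overlapped. Whether nerve fibres had a part in the Scn10a signal was not tested.

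Of the Schwann cell markers 0 of 12 and of the neuroendocrine cell markers 0 of 8 passed on either day, beside 1.75% of all genes on D0 and 0.748% on D28. Of 13 cardiac muscle markers 1 fell on both days, Myl7, an atrial myosin light chain (-0.60 on D0 with a limma adjusted p of 0.010, and -0.63 on D28 with 0.0108), beside 0.679% and 0.267% of all genes that fell. Of the skeletal muscle markers 0 of 10 passed, beside 1.75% and 0.748% of all genes. The call of Myl7 lay close to the fold limit, with -0.51 on D0 and -0.54 on D28 in the deposited table and -0.58 on D0 with slide as a block. Of the 13 cardiac markers 0 had a positive difference on D0 and 1 on D28, beside 49.8% and 48.9% of all genes. The mean log2 signal over the cardiac list was 7.85 to 8.58 in control and 7.36 to 7.84 in exposed rats of D0, without overlap. On D28 it was 7.78 to 8.18 and 7.56 to 8.15. The median difference was -0.47 on D0 and -0.25 on D28 over the cardiac markers and -0.64 and 0.69 over the skeletal muscle markers. Without control D0 replicate 5 and exposed D28 replicate 1, the 2 arrays with the most skeletal muscle RNA, the latter medians were -0.20 and 0.02. Of 14 macrophage markers 2 rose on D0, beside 1.08% of all genes. They were Siglec1, a sialic acid receptor of macrophages (0.89, limma adjusted p = 0.0027), and Spp1, which codes for osteopontin (2.20, limma adjusted p = 0.0201). On D28 1 rose, Spp1 (2.13, limma adjusted p = 0.0333), beside 0.482% of all genes. The adjusted p of Spp1 reached 0.0589 on D0 and 0.0824 on D28 when exposed replicate 1 of that day was left out. In all, 13 of the 14 macrophage markers had a positive difference on D0 and 11 on D28, beside 49.8% and 48.9% of all genes, with medians of 0.35 and 0.21. The mean log2 signal over the macrophage list was 9.42 to 9.80 in control and 10.0 to 10.3 in exposed rats of D0, and 9.35 to 9.90 and 9.85 to 10.1 on D28. Of neutrophil (11), T and B cell (13) and lung identity (12) markers 0 passed on either day, beside 1.75% of all genes on D0 and 0.748% on D28. In lists this short a count of 0 is near those shares and says little about these cells. Whether a change in the make-up of the lobe had a part in the Scn10a signal was not tested.

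In the array's coordinates the probe of Scn11a lies 146.3 kb from that of Scn10a. Within 1 Mb on each side 34 other genes had a probe and 33 of them were tested. On D0 2 were past both thresholds, beside 1.75% of all genes: Csrnp1, a nuclear protein of the immediate early response, fell by 0.67 on the log2 scale (SE 0.15, limma adjusted p = 0.0132), and Entpd3, an ectonucleotidase that breaks down extracellular nucleotides, rose by 0.60 (SE 0.16, limma adjusted p = 0.0433). On D28 1 was, beside 0.748% of all genes, again Entpd3, which rose by 0.75 (SE 0.15, limma adjusted p = 0.0139). With slide as a block the D0 difference of Entpd3 was 0.56, under the fold limit. With single arrays left out, its D0 call held in 7 of 23 fits, with adjusted p up to 0.131 without exposed D0 replicate 1, where the difference was 0.49, and on D28 it had an adjusted p of 0.0668 without the 3 arrays that stood apart. Entpd3 lies 995.6 kb from the Scn10a probe. Csrnp1 differed by 0.22 between exposed and control rats of D28 (SE 0.14, limma adjusted p = 0.638). In control rats it differed by -0.58 between D28 and D0 (SE 0.14, limma adjusted p = 0.0573). The change of its exposure effect between the days was 0.89 (SE 0.20, limma adjusted p = 0.253). The median difference of the neighbours was -0.02 on D0 and 0.07 on D28.

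Genes whose log2 signal followed that of Scn10a most closely over the 23 arrays are given by Pearson correlation, with the differences between the groups included. The closest was the uncharacterised LOC102550137 (r = 0.944), followed by Lpo, a lactoperoxidase of airway secretions (r = 0.940), Retnla, a secreted protein of the resistin family (r = 0.938), and Orm1, an acute-phase plasma protein (r = 0.925). Next came Sema4a, a semaphorin (r = 0.923), Slc26a4, the anion exchanger pendrin (r = 0.920), and Cfi, complement factor I (r = 0.919). Chia, an acidic chitinase (r = 0.919), Duox1, a hydrogen peroxide-forming oxidase of airway epithelium (r = 0.910), and LOC689757 (r = 0.903) completed the first 10. All 10 were higher in exposed rats on both days, by 0.49 (Sema4a, D28) to 3.62 (Orm1, D28) on the log2 scale. Scn10a was chosen for such a rise, so these correlations largely reflect how clearly a gene separates the same groups. The deviations of these genes from their group means correlated with those of Scn10a at 0.210 to 0.668, with Orm1 highest and LOC689757 lowest. Asic4 had r = -0.873 over all arrays and -0.09 for the deviations.

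Ranked by deviations from the group means alone, which take out the differences between groups, other genes came first. They were LOC103694133 (r = 0.799), well above background on 7 arrays, Smurf2, a ubiquitin ligase (r = 0.778), Eml4, a microtubule-binding protein (r = 0.778), Nat8b (r = 0.768) and Vsig2 (r = 0.766). Over all arrays the first 4 of these had r between -0.305 and 0.222, and Vsig2, which rose on D0 by 0.67 (limma adjusted p = 0.0108), had r = 0.857. The genes ranked by deviations were picked as the highest of all genes tested. A highest value picked from so many genes can be large without any link to Scn10a. How large it would be for unrelated genes was not tested, so this ranking does not show that these genes follow Scn10a. The points of each correlation share their arrays and normalization, and the control arrays give Scn10a values near background.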

How the data were processed

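RNA of 23 lung accessory lobes was labelled with 1 dye and hybridised to Agilent rat arrays. The authors deposited per array the intensities of the scanner software (version 11.0.1.1 on 22 arrays, 12.0.1.1 on 1): the background-corrected processed signal, spot and background brightness and a well above background mark, none normalized between arrays. The deposited table of all arrays holds quantile normalized intensities that followed the median signal (Spearman correlation at least 0.99997). The groups came from the titles. The source label of exposed D28 arrays gives day 0.

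Log2 processed signals were used. Outlier spots were set missing. The 40899 probes that exceeded the 95th percentile of the 308 negative controls in 5 or more arrays were quantile normalized and averaged to 23255 genes. Gene names were those of the file with the later software. One limma 3.58.1 model (R 4.3.3) with 4 group means and 19 residual degrees of freedom gave all p-values, with Benjamini-Hochberg adjustment over all genes. The model was tested on simulated data. Of 322 readings of channel spots 0 were outliers and 0 saturated. The number of arrays limits the precision.

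The channel genes and the gene lists were chosen with earlier results of these data known. Named genes were the channels, listed genes past both thresholds, the beta subunits, Nalcn, the epithelial sodium channel, the genes most correlated with Scn10a (10 over all arrays, 5 by deviations) and the nearest or called neighbours within 1 Mb. Same-numbered arrays did not deviate together (correlations from -0.299 to 0.451, median -0.02, 33 pairs). This cannot show how the rats were numbered or handled, and the main fit did not pair them by replicate number. Alternatives were other scalings, background corrections, filters, probe summaries, fits, blocks and single arrays left out. Some genes under the naming rule are not reported here.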

Additional observations from a re-analysis of the deposited data

Results flagged for a closer look

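Scn7a in control D0 replicate 4, at a log2 normalized signal of 7.757, lay apart from the other 5 control rats of D0, of which the next highest was at 7.482. Its gap made up 0.740 of the range of the group. Of 32 groups of arrays looked at (8 genes in 4 groups) this was the only one with such a gap, and about 1 in 20 groups would show one by chance.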

How the results depend on the processing

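Of the tested channel genes other than Scn10a, 0 were past both thresholds on either day under the settings run and with each array left out. The Scn10a log2 difference between exposed and control rats moved by more than the replicate spread (0.594) on D0 to 1.404 with the median signal, 1.398 with the deposited table and 0.922 with normexp, and on D28 to 1.54, 1.54 and 1.08. Without single arrays it ranged from 2.87 to 3.22 on D0 and from 3.08 to 3.46 on D28. The count of all genes past both thresholds, 408 on D0 and 174 on D28, became 220 and 94 with normexp, 651 and 303 without a fold change limit, 41 on D28 with only the arrays of that day, and 92 on D28 in a fit chosen after seeing the data, without the 3 arrays that stood apart. Without single arrays it ranged from 314 to 434 on D0 and from 111 to 201 on D28, where leaving out exposed D28 replicate 1 gave 111. The cause was not tested. Without these 3 arrays Scn10a differed by 3.18 on D0 and 3.11 on D28, and Asic4 by -0.84 and -0.70, past both thresholds. Of the other genes called, Siglec1 and Csrnp1 on D0 were past both thresholds in all 14 settings and with each of 23 arrays left out, and Stmn2 in 13 settings. Entpd3 on D0 was so in 7 of 14 settings and with 7 of 23 arrays left out, Ank3 on D28 in 9 of 16 and 19 of 23, Myl7 in 8 of 15 and 18 of 23 on D0 and in 10 of 15 and 22 of 23 on D28, and Spp1 in 13 of 14 and 19 of 23 on D0 and in 11 of 14 and 17 of 23 on D28.

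With the replicate number as a block, Scn10a differed by 3.03 on D0 and 3.26 on D28. Of the named genes, this block ended the calls of Myl7 on D0 (-0.57), Entpd3 on D0 (limma adjusted p = 0.0803) and Spp1 on D28 (limma adjusted p = 0.0656), and no other. With slide as a block Scn10a differed by 3.02 and 3.24, the differences of Myl7 (-0.58) and Entpd3 (0.56) on D0 and Ank3 (0.56) on D28 fell below the fold limit, and control D28 replicate 4, alone on its slide, then adds nothing. Without the filter on dim probes Scn1a differed by 0.65 and 0.03 and Scn9a by -0.06 and -0.13, with limma adjusted p between 0.741 and 0.9996. Values of Scn10a in control rats, Scn1a, Scn9a, Scn11a and the second Scn8a probe are limited by signal close to background.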
